A study of Rattus norvegicus with 36 samples.

Results

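The RNA of H9C2 cells, a myoblast line derived from embryonic rat heart, was compared after transfection with 2 forms of the same microRNA and hypoxia. The comparison holds 6 of the 36 libraries of the series: 3 from cells given Plus A, which is miR-125b with an adenosine added at its 3′ end, and 3 from cells given miR-125b itself. They were chosen by their labels alone. Both groups received 25 nmol/L of mimic for 24 h and then 24 h of hypoxia in serum-free, low-glucose DMEM, so the dose, the low oxygen and the lack of serum were shared and the 3′ base of the mimic was the only labelled difference. The series also holds a mimic control (MC), 3 trimmed forms (Trim A, Trim AG and Trim AGU) and the same 6 mimics in normoxia with fresh DMEM, each in 3 libraries. H9C2 is 1 cell line, and nothing in the labels says whether the 3 libraries of a group came from separate cultures, so the p-values below measure the spread between libraries, which may be technical. Libraries were made from poly-A RNA without strand information, and genes that overlap on opposite strands therefore cannot be separated.

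miR-125b is an abundant microRNA of heart and skeletal muscle. A microRNA guides Argonaute to mRNAs chiefly through its seed near the 5′ end, and the bound mRNA is destabilised or translated less. Copies of 1 microRNA that differ at their ends are called isomiRs, and addition of an untemplated base at the 3′ end by terminal nucleotidyltransferases is a common source of them. The 2 sequences are shown because the comparison rests on their single difference, with the seed (bases 2 to 8 from the 5′ end) and the added base in capitals. The sequence of miR-125b is that of RefSeq for rat miR-125b-5p at the Mir125b2 locus (GRCr8, chromosome 11, 29732588 to 29732609, plus strand), and that of Plus A is the same sequence with the base that the labels state, giving 23 against 22 bases with the same seed.
miR-125b: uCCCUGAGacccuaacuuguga
Plus A: uCCCUGAGacccuaacuugugaA

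The 6 libraries held between 29091343 and 30994490 counts over 21352 listed genes, of which 15134 had enough counts to be tested. Plus A replicate 1 lay apart from its group. The mean chi-square per gene, larger where counts of a pair of libraries differ more, was 12.6 and 17.9 against Plus A replicates 2 and 3. It was 5.84 between Plus A replicates 2 and 3, and 4.97 to 5.64 between miR-125b libraries. The source of this difference was not tested. Of 10 markers of the labelled cell type, Myod1, Myog, Mef2c, Gata4 and Tnnt2 were present, with means of 12.8 CPM (counts scaled to library size) or more in both groups. The other 5 were low or absent: Des had means of 1.09 CPM in Plus A and 1.61 CPM in miR-125b, Actn2, Nkx2-5 and Myh6 stayed under 1 CPM, and Myf5 had 0 counts in all 6 libraries. Summed over these 10 markers, Plus A libraries held 193.7 to 200.7 and miR-125b libraries 190.1 to 191.7 CPM without TMM, against 776.4 to 798.8 in MC. Of 12 markers of other cell types 8 were listed, and their sum was 10.42 to 13.13 in Plus A, 10.69 to 11.68 in miR-125b and 7.926 to 9.644 in MC, with the blood and epithelial markers Ptprc, Adgre1, Epcam and Cdh1 at 0 to 4 counts a library. In normoxia the libraries labelled replicate 1 of Plus A and of miR-125b each lay with the other group for many genes, as described at the end. The hypoxia comparison uses neither of them.

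In hypoxia, the added adenosine went with lower levels of the caveolar coat gene *Cav1*, of the actin cytoskeleton genes *Tpm3*, *Actg1* and *Dstn* and of genes of DNA replication and mitosis, and with higher levels of the deubiquitinase gene *Usp15* and the heparan sulphate editing gene *Sulf1*. The means of *Usp15* and *Sulf1* were also higher with Trim A than with miR-125b, as given below. Those of *Cav1*, *Actg1* and *Dstn* were not lower with Trim A. Levels are given as CPM normalised by the trimmed mean of M-values (TMM), and a gene is said to be up- or down-regulated in Plus A where edgeR's quasi-likelihood test gave a Benjamini-Hochberg adjusted p below 0.05 and the fold change was at least 1.5. By this rule 307 of the 15134 genes (2.03%) differed, 107 up-regulated (0.707%) and 200 down-regulated (1.32%). Most differences were small: 75 of the 107 up-regulated and 153 of the 200 down-regulated genes changed by less than 2-fold. At an adjusted p below 0.05 with no fold limit, 1265 genes (8.36%) had a higher level with Plus A and 1143 (7.55%) a lower one. For 10312 genes (68.1%) the 95% confidence interval of the difference lay wholly within 1.5-fold in either direction. Counts for the gene lists below are to be set against these shares of all tested genes. The counts depended on single libraries, with 46 up- and 119 down-regulated genes without miR-125b replicate 1, 70 up-regulated genes without Plus A replicate 2 and 126 down-regulated genes without miR-125b replicate 3. With no fold limit the numbers of higher and lower genes were 694 and 646 without Plus A replicate 2, and 472 and 546, 622 and 581, and 550 and 521 without miR-125b replicates 1, 2 and 3, and list counts at that level fell under the same omissions as given with each list. When the spread was shared over the 33 libraries whose counts were used, 13 genes were up- and 115 down-regulated, and 28 of the 56 named genes that were called lost their call.

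The 2 forms lay much closer to each other than either did to MC. Taken as the root of the mean squared difference in log2 CPM over genes, the distance averaged 0.413 between Plus A libraries, 0.389 between miR-125b libraries and 0.452 across these groups, against 0.759 between Plus A and MC and 0.712 between miR-125b and MC. Against MC, 3767 of 15159 tested genes (24.8%) differed with Plus A and 3314 of 15143 (21.9%) with miR-125b. Those comparisons share the MC libraries with each other, and the Plus A or miR-125b libraries with the comparison described here. Their values are given below only beside those of Plus A against miR-125b, and are not independent of them.

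*Cav1*, which encodes caveolin-1, the principal coat protein of the flask-shaped membrane invaginations called caveolae, had the lowest p of all genes. Its level was 99.3, 93.5 and 94.1 CPM in Plus A and 243, 247 and 243 CPM in miR-125b. Plus A libraries were all low and near each other, and no library of a group came near the other group. The means were 95.6 ± 3.17 (SD, n = 3) and 244 ± 2.38 (SD, n = 3), a log2 fold change of -1.35 (SE 0.0398; edgeR's quasi-likelihood test, adjusted p = 5.72e-07). Against MC the log2 fold change of *Cav1* was -0.06 with miR-125b and -1.41 with Plus A. The gene lies on chromosome 4, 44597123 to 44630200, plus strand, in the build of the deposited tables, which they do not name.

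Of the other genes of caveolae, only *Prkcdbp* was lower at an adjusted p below 0.05, and none was called. Of 10 listed caveolar genes, all tested, *Cav1* was down-regulated and none up-regulated. The median log2 fold change of the list was -0.06, with 7 members below 0. *Prkcdbp*, which encodes the coat component cavin-3, had 277, 364 and 391 CPM in Plus A and 467, 453 and 457 CPM in miR-125b, a log2 fold change of -0.42 (edgeR, adjusted p = 0.0258) that did not reach 1.5-fold. The list held 2 lower members at an adjusted p below 0.05, and 1 without Plus A replicate 2 or without any 1 of the miR-125b libraries. *Cav2*, the partner of *Cav1* in its oligomers, had a log2 fold change of 0.13 (adjusted p = 0.114 in edgeR), the muscle form *Cav3* one of -0.24 (adjusted p = 0.0616) and *Ptrf*, which encodes cavin-1, one of 0.07 (adjusted p = 0.208).

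*Gpd1l*, *Sdc4* and *Tax1bp3* were also low in every Plus A library. *Gpd1l*, which encodes a glycerol-3-phosphate dehydrogenase-like enzyme, was at 8.91, 9.51 and 8.8 CPM in Plus A and at 22.4, 23 and 23.7 CPM in miR-125b, a log2 fold change of -1.34 (SE 0.0713; edgeR, adjusted p = 2.24e-05). *Sdc4*, the gene of the focal adhesion proteoglycan syndecan-4, was at 27.7, 32 and 34.8 CPM in Plus A and 68.9, 63.8 and 69.6 CPM in miR-125b, with a log2 fold change of -1.10 (SE 0.0802; edgeR, adjusted p = 0.000102). *Tax1bp3*, which encodes a small protein made almost wholly of a PDZ domain, was at 63.9, 70.1 and 68.3 CPM in Plus A and 134, 131 and 135 CPM in miR-125b, with a log2 fold change of -0.98 (SE 0.0458; edgeR, adjusted p = 1.03e-05). The groups did not overlap for any of these genes, as was the case for 5508 of all tested genes (36.4%). Beside MC, miR-125b moved *Gpd1l* by 0.15, *Sdc4* by -0.44 and *Tax1bp3* by -0.08 on the log2 scale, and Plus A moved them by -1.19, -1.54 and -1.06. *Sdc4* was also lower with Trim A. With TMM over the 33 libraries used, its means were 65.0 CPM in miR-125b, 30.3 in Plus A and 42.2 in Trim A. In the same order they were 22.2, 8.71 and 22.6 CPM for *Gpd1l* and 128, 64.8 and 132 CPM for *Tax1bp3*.

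**Figure D1:**
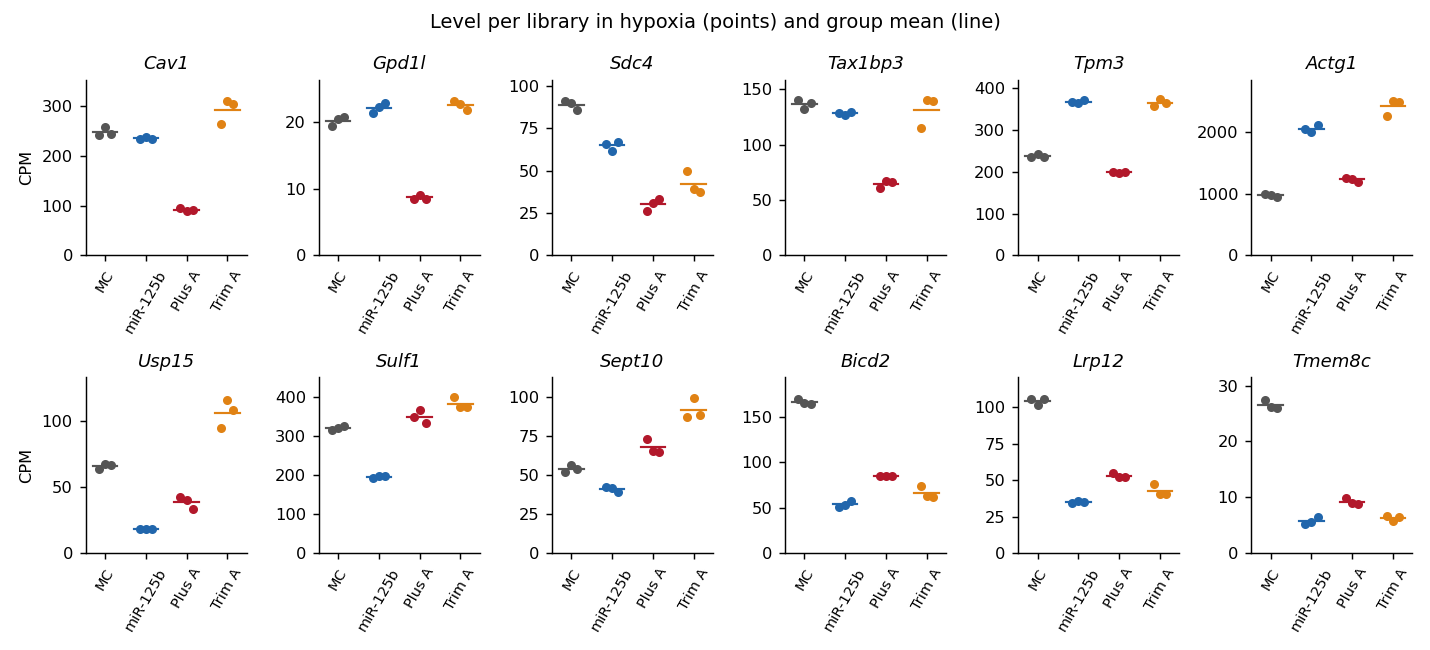
Level of 12 genes in CPM (vertical axis, TMM over the 33 libraries used) in hypoxia, with 1 point per library of each mimic shown (MC, miR-125b, Plus A, Trim A) and a bar at the mean of each 3. For *Cav1*, *Gpd1l* and *Tax1bp3* the Plus A libraries lie below the other groups shown, whereas for *Usp15*, *Bicd2*, *Lrp12* and *Tmem8c* the Plus A libraries lie between MC and miR-125b.

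Among the down-regulated genes with high levels were *Tpm3*, *Actg1* and *Dstn*, all of the actin cytoskeleton, which was not a list of its own. *Tpm3*, a tropomyosin that coats actin filaments, was at 209, 205 and 207 CPM in Plus A and 381, 377 and 384 CPM in miR-125b, a log2 fold change of -0.88 (SE 0.0343; edgeR, adjusted p = 2.73e-06). *Actg1*, encoding cytoplasmic gamma-actin, was at 1320, 1296 and 1230 CPM in Plus A and 2139, 2072 and 2190 CPM in miR-125b, with a log2 fold change of -0.74 (SE 0.0396; edgeR, adjusted p = 2.24e-05). *Dstn*, whose product destrin depolymerises actin filaments, was at 287, 272 and 248 CPM in Plus A and 482, 472 and 460 CPM in miR-125b, with a log2 fold change of -0.81 (SE 0.0534; edgeR, adjusted p = 7.71e-05). Plus A libraries were thus the low ones throughout for these genes. An actin-like gene, *Potef*, had a log2 fold change of -0.64, and whether its reads are shared with *Actg1* was not tested. *Actb*, which encodes cytoplasmic beta-actin, had 4186, 3973 and 3829 CPM in Plus A and 3652, 3778 and 3752 CPM in miR-125b, a log2 fold change of 0.10 with a 95% interval from 0.01 to 0.19 (edgeR, adjusted p = 0.114). *Tpm3* and *Actg1* were above MC with miR-125b, by 0.64 and 1.09 on the log2 scale, and stood at -0.23 and 0.36 with Plus A. *Dstn* was at -0.33 with miR-125b and -1.14 with Plus A.

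*Ei24* and *Mgat4b* belonged to the same well-expressed set. *Ei24*, which encodes a membrane protein of the endoplasmic reticulum, was at 34.2, 34.4 and 33.5 CPM in Plus A and 62, 59 and 59.3 CPM in miR-125b, a log2 fold change of -0.82 (SE 0.0474; edgeR, adjusted p = 3.74e-05). *Mgat4b*, which encodes an enzyme that branches N-linked glycans, was at 73, 66.8 and 71.3 CPM in Plus A and 126, 119 and 118 CPM in miR-125b, with a log2 fold change of -0.78 (SE 0.0487; edgeR, adjusted p = 6.28e-05). Both were called under each of 12 alternatives that kept the 1.5-fold limit, as were 19 of the 56 named genes that were called.

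Genes of the cell cycle were lower in Plus A as groups, by less than 1.5-fold for most members. In bulk RNA, fewer cycling cells and less RNA of these genes per cell cannot be told apart. Of 40 genes of DNA replication, all tested, 4 were down-regulated and none up-regulated, 18 were lower at an adjusted p below 0.05 with no fold limit, and 38 had a log2 fold change below 0, with a median of -0.33. Of 29 tested genes of mitosis and the spindle, 2 were down-regulated and none up-regulated, 15 were lower at an adjusted p below 0.05, and 28 were below 0, with a median of -0.34. Over all tested genes the median was -0.0035 and 7652 (50.56%) were below 0. The number of mitotic genes lower at an adjusted p below 0.05 ranged from 8 to 18 when 1 library was left out, with 8 without miR-125b replicate 2 and 9 without miR-125b replicate 3. In the fit over all libraries it was 6, and it was 10 for DNA replication. Down-regulated members numbered 7 for DNA replication without Plus A replicate 1, and 1 for mitosis without Plus A replicate 3 or miR-125b replicate 2.

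Among the replication genes, *Cdc45*, a part of the helicase that opens the origin, was at 2.55, 3.16 and 3.67 CPM in Plus A and 6.06, 7.19 and 6.38 CPM in miR-125b, a log2 fold change of -1.06 (SE 0.165; edgeR, adjusted p = 0.00401). *Mcm3*, a subunit of the replicative helicase ring, was at 10.4, 8.3 and 9.25 CPM in Plus A and 15.4, 17.5 and 16.4 CPM in miR-125b, with a log2 fold change of -0.82 (SE 0.101; edgeR, adjusted p = 0.00145). *Pole*, the catalytic subunit of DNA polymerase epsilon, was at 6.06, 5.91 and 5.32 CPM in Plus A and 9, 9.53 and 9.87 CPM in miR-125b, with a log2 fold change of -0.72 (SE 0.109; edgeR, adjusted p = 0.00365). The groups were separate for these 3 genes. *Mcm10*, a replication initiation factor, had a log2 fold change of -0.84 (edgeR, adjusted p = 0.0178), which was no longer called without miR-125b replicate 1 (adjusted p = 0.0724) or replicate 2 (adjusted p = 0.053). The sliding clamp gene *Pcna* was lower by less, with a log2 fold change of -0.20 (edgeR, adjusted p = 0.0193).

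Among the mitotic genes, *Cdca3*, a regulator of mitotic entry, was at 6.1, 5.31 and 5.73 CPM in Plus A and 7.89, 9.49 and 9.54 CPM in miR-125b, a log2 fold change of -0.65 (SE 0.122; edgeR, adjusted p = 0.00883). *Aurkb*, the kinase of the chromosomal passenger complex, was at 6.92, 7.02 and 6.64 CPM in Plus A and 10.1, 10.8 and 10.4 CPM in miR-125b. Its log2 fold change of -0.60 was near the fold limit and fell to -0.58 without Plus A replicate 3 or without miR-125b replicate 2, which ended the call. The proliferation marker *Mki67* was at 38.7, 33.9 and 36.1 CPM in Plus A and 45, 50.3 and 48.6 CPM in miR-125b, with a log2 fold change of -0.41 (edgeR, adjusted p = 0.00489). The values of *Cdk1*, the kinase that drives mitotic entry, were 27.4, 29.7 and 28.1 CPM in Plus A and 36.1, 36.7 and 35.9 CPM in miR-125b, with a log2 fold change of -0.35 (edgeR, adjusted p = 0.00426).

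*Ccnd1*, which encodes cyclin D1 of the G1 phase and is a reported target of miR-125b, was at 267, 279 and 290 CPM in Plus A and 422, 428 and 430 CPM in miR-125b. The means were 279 ± 11.3 (SD, n = 3) and 427 ± 4.03 (SD, n = 3), with a log2 fold change of -0.61 (SE 0.0401; edgeR, adjusted p = 7.71e-05). Without Plus A replicate 1 it was -0.58, just under the fold limit. Against MC, *Ccnd1* was at 0.10 with miR-125b and -0.51 with Plus A on the log2 scale.

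**Figure D2:**
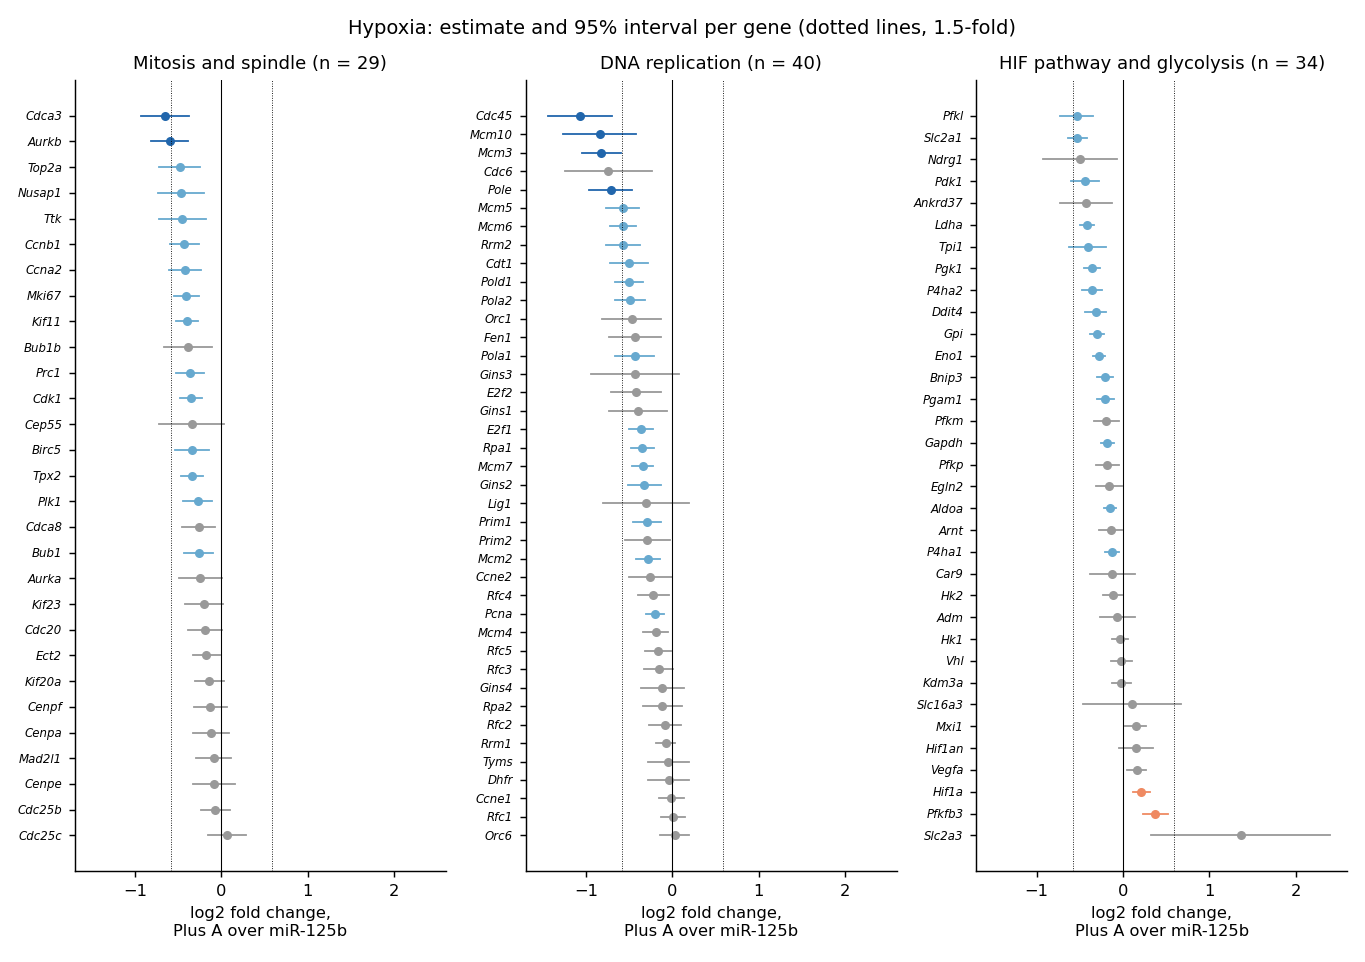
Log2 fold change of Plus A over miR-125b in hypoxia with its 95% confidence interval for each tested gene of 3 lists: mitosis and spindle (29), DNA replication (40) and the HIF pathway with glycolysis (34). Dark blue marks down-regulated genes, light blue an adjusted p below 0.05 on the lower side, orange the same on the higher side and grey the rest, and dotted lines mark 1.5-fold. Nearly all points of the cell cycle lists lie below 0.

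Most genes that low oxygen induces through the hypoxia-inducible factors (HIF), and the genes of glycolysis, had log2 fold changes below 0, with members passing the test on both sides. Of 40 genes of the HIF pathway and glycolysis 34 were tested, none was called, 15 were lower and 2 higher at an adjusted p below 0.05, 27 (79.41%) were below 0, and the median log2 fold change was -0.17. In the fit over all libraries 5 were lower and none higher, and 1 was higher without any 1 of the miR-125b libraries. The lower members included *Slc2a1* and enzymes of glycolysis from *Gpi* to *Ldha*. *Ldha*, encoding lactate dehydrogenase A, was at 1235, 1294 and 1262 CPM in Plus A and 1656, 1677 and 1738 CPM in miR-125b, a log2 fold change of -0.42 (edgeR, adjusted p = 0.000227). *Slc2a1*, the gene of the glucose transporter GLUT1, was at 59.3, 64.7 and 64.9 CPM in Plus A and 88.7, 91.8 and 92.4 CPM in miR-125b, with a log2 fold change of -0.53 (edgeR, adjusted p = 0.000348). *Pfkl*, a phosphofructokinase, was at 134, 171 and 174 CPM in Plus A and 227, 229 and 239 CPM in miR-125b, with a log2 fold change of -0.54 (edgeR, adjusted p = 0.00452). The members that were higher were *Hif1a*, which encodes the oxygen-regulated subunit itself, at 0.21 (edgeR, adjusted p = 0.0127), and *Pfkfb3*, which encodes an activator of glycolytic flux, at 0.37 (edgeR, adjusted p = 0.00563). Outside glycolysis, the HIF targets *Ddit4*, an inhibitor of mTOR signalling, and *Bnip3*, a mitophagy receptor gene, were lower, with log2 fold changes of -0.32 and -0.21. The secreted factors *Vegfa* and *Adm* did not pass the test, with values of 0.16 (edgeR, adjusted p = 0.0665) and -0.07 (edgeR, adjusted p = 0.677).

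Immediate early genes, which growth factors and stress induce without new protein synthesis, were lower in Plus A where they passed the test. Of 28 tested genes of this group and of AP-1 3 were down-regulated, none was up-regulated and 13 were lower at an adjusted p below 0.05, a number that was 7 without miR-125b replicate 1 and 2 in the fit over all libraries. Down-regulated members numbered 0 without Plus A replicate 2, 1 without any other library and 1 in the fit over all libraries. *Jun* was at 80.6, 87.5 and 87.9 CPM in Plus A and 118, 115 and 112 CPM in miR-125b, with a log2 fold change of -0.43 (edgeR, adjusted p = 0.000907), and *Egr1* had one of -0.41 (edgeR, adjusted p = 0.00136). *Klf2*, a transcription factor gene of the early response, was at 52.2, 50.5 and 58.1 CPM in Plus A and 82.8, 76.9 and 85.9 CPM in miR-125b. Its log2 fold change of -0.61 (SE 0.0642; edgeR, adjusted p = 0.00074) became -0.57 without Plus A replicate 2 or without miR-125b replicate 3, under the fold limit. The calls of the low-count members *Dusp4* and *Fosb* were lost, by the adjusted p, under most of the single-library omissions, with adjusted p from 0.0541 without Plus A replicate 1 to 0.137 without miR-125b replicate 2 for *Dusp4*, and from 0.0595 without Plus A replicate 3 to 0.137 without miR-125b replicate 3 for *Fosb*.

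The antioxidant genes controlled by the transcription factor NRF2 held 8 lower members and 1 higher member of 27 tested at an adjusted p below 0.05, with none called and a median log2 fold change of -0.11. Over all tested genes 7.55% were lower and 8.36% higher at that level. In the fit over all libraries no gene of the NRF2 list was lower or higher at that level. Without miR-125b replicate 1, 4 were lower, and 5 without Plus A replicate 2, miR-125b replicate 2 or miR-125b replicate 3. *Nqo1*, a quinone reductase gene, was at 830, 828 and 812 CPM in Plus A and 1085, 1086 and 1097 CPM in miR-125b, a log2 fold change of -0.40 (edgeR, adjusted p = 0.00017). *Hmox1*, which encodes the haem-degrading enzyme heme oxygenase 1, was at 682, 722 and 763 CPM in Plus A and 873, 865 and 839 CPM in miR-125b, with a log2 fold change of -0.25 (edgeR, adjusted p = 0.00785). Of 13 tested genes of keratins and other intermediate filaments 5 were lower at an adjusted p below 0.05, among them *Krt8* at -0.52 and *Vim* at -0.24, and none passed 1.5-fold. Lower members numbered 3 without Plus A replicate 2, miR-125b replicate 1 or miR-125b replicate 2, and 2 without miR-125b replicate 3. Of 33 tested genes of cholesterol and fatty acid synthesis 6 were lower and none higher at that level, with 2 lower without Plus A replicate 2 or miR-125b replicate 2 and 1 without miR-125b replicate 1 or 3.

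Genes of the extracellular matrix were lower more often than higher. Of 40 tested, 4 were down- and 1 up-regulated, and 13 were lower and 4 higher at an adjusted p below 0.05. Over all tested genes 7.55% were lower and 8.36% higher at that level. In the list 28 (70%) were below 0, against 50.56% of all genes, and the median log2 fold change was -0.08. Lower members at that level numbered 8 without Plus A replicate 2 and 6, 7 and 6 without miR-125b replicates 1, 2 and 3, higher ones 2, 1, 1 and 1 in the same order, and 2 were down-regulated without Plus A replicate 1. In the fit over all libraries none was down-regulated or lower at that level, which ended the 4 down-regulated calls, and 1 was up-regulated. *Eln*, the gene of elastin, was at 5.47, 8.53 and 6.8 CPM in Plus A and 14.9, 13.2 and 12.4 CPM in miR-125b, a log2 fold change of -0.96 (SE 0.155; edgeR, adjusted p = 0.00483). *Fbn1*, whose product fibrillin-1 forms the microfibrils on which elastin is laid down, was at 602, 610 and 603 CPM in Plus A and 840, 894 and 896 CPM in miR-125b, with a log2 fold change of -0.53 (edgeR, adjusted p = 9.04e-05). The small proteoglycan genes *Lum* and *Dcn* had log2 fold changes of -0.68 and -0.69, and that of *Dcn* was -0.58 without Plus A replicate 1, under the fold limit. *Eln*, *Lum* and *Dcn* were also lower with Trim A. With TMM over the 33 libraries used, means of *Eln* were 13.0 CPM in miR-125b, 6.66 in Plus A and 6.28 in Trim A. In the same order they were 15.6, 9.68 and 10.0 CPM for *Lum* and 12.3, 7.60 and 7.63 CPM for *Dcn*. *Col1a2* was called with overlapping groups, at 1541, 1461 and 2410 CPM in Plus A and 3378, 2321 and 3330 CPM in miR-125b, and the call was lost without any 1 of 4 libraries: adjusted p = 0.0501 without Plus A replicate 1, 0.102 without Plus A replicate 2, 0.118 without miR-125b replicate 1 and 0.111 without miR-125b replicate 3 (edgeR). *Col1a1*, the partner chain of type I collagen, had a log2 fold change of -0.12.

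The up-regulated matrix gene was *Timp3*, an inhibitor of metalloproteinases, at 26.8, 26.4 and 28.7 CPM in Plus A and 16.1, 17.4 and 18.8 CPM in miR-125b, a log2 fold change of 0.65 (SE 0.0741; edgeR, adjusted p = 0.00103). Integrins and laminins, the receptors and sheet proteins that hold cells to the matrix, moved both ways: of 24 tested integrin and laminin genes 6 were higher and 3 lower at an adjusted p below 0.05, 2 were up-regulated and 1 was down-regulated. Over all tested genes 8.36% were higher and 7.55% lower at that level. The 6 became 3 without Plus A replicate 2, miR-125b replicate 1 or miR-125b replicate 3, and the 3 lower ones became 1 without miR-125b replicate 3. In the fit over all libraries none was called. *Itgb1*, the beta chain common to most matrix-binding integrins, was at 1191, 1126 and 1037 CPM in Plus A and 778, 799 and 784 CPM in miR-125b, with a log2 fold change of 0.51 (edgeR, adjusted p = 0.000562). Of the called members, *Itga1*, the alpha chain of a collagen receptor, had a log2 fold change of 0.69 that was 0.57 without miR-125b replicate 1, under the fold limit. *Itgb8* was at 0.81 and lost its call without Plus A replicate 2 (adjusted p = 0.0739), Plus A replicate 3 (0.0698), miR-125b replicate 1 (0.073) or miR-125b replicate 3 (0.104; edgeR). *Lamb3*, a laminin chain gene of epithelial basement membranes, was at -0.67 and lost its call without Plus A replicate 1 (-0.55) or without miR-125b replicate 3 (edgeR, adjusted p = 0.0578).

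Among up-regulated genes, *Usp15*, which encodes an enzyme that removes ubiquitin from proteins, was at 44.1, 41.9 and 34.2 CPM in Plus A and 19.1, 19 and 19.1 CPM in miR-125b. The means were 40.1 ± 5.19 (SD, n = 3) and 19.1 ± 0.0918 (SD, n = 3), a log2 fold change of 1.07 (SE 0.0913; edgeR, adjusted p = 0.000222). *Sulf1*, which encodes an extracellular enzyme that removes sulphate groups from heparan sulphate, was at 364, 381 and 345 CPM in Plus A and 201, 204 and 206 CPM in miR-125b, with a log2 fold change of 0.84 (SE 0.0435; edgeR, adjusted p = 2.24e-05). *Sept10*, a septin GTPase gene, was at 76.6, 68.3 and 67.4 CPM in Plus A and 44.1, 43.1 and 40.9 CPM in miR-125b, with a log2 fold change of 0.73 (SE 0.0611; edgeR, adjusted p = 0.000212). In each case every Plus A library lay above every miR-125b library. These higher levels were not particular to Plus A. With TMM over the 33 libraries used, means of *Usp15* were 18.4 CPM in miR-125b, 38.5 in Plus A and 106 in Trim A. In the same order they were 196, 349 and 382 CPM for *Sulf1* and 41.1, 67.9 and 91.7 CPM for *Sept10*. Trim A was not tested against miR-125b here. *Lpp*, a LIM-domain protein gene of focal adhesions, had a log2 fold change of 0.86 (edgeR, adjusted p = 0.00469), and *Tulp4*, a tubby-like protein gene, one of 0.64 (edgeR, adjusted p = 8.67e-05).

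Several of the up-regulated genes were below MC with both mimics, and less so with Plus A. *Usp15* was at -1.83 against MC with miR-125b and -0.75 with Plus A on the log2 scale. *Bicd2*, an adaptor gene of the dynein motor, was at 88.3, 88.6 and 88.1 CPM in Plus A and 53.1, 54.8 and 59 CPM in miR-125b, a log2 fold change of 0.67 (SE 0.0489; edgeR, adjusted p = 0.000102), and stood at -1.62 with miR-125b and -0.95 with Plus A against MC. *Lrp12*, a receptor gene of the low-density lipoprotein receptor family, had a log2 fold change of 0.60, which was 0.57 without Plus A replicate 1 and 0.58 without miR-125b replicate 1, under the fold limit, and stood at -1.56 and -0.96 against MC. *Yipf3*, a Golgi membrane protein gene, had one of 0.62, which was 0.58 without Plus A replicate 2 and just under the limit, with -0.85 and -0.23 against MC. *Tmem8c*, which encodes the myoblast fusion protein myomaker, was at 10.3, 9.31 and 9.09 CPM in Plus A and 5.47, 5.73 and 6.64 CPM in miR-125b, a log2 fold change of 0.68 (SE 0.118; edgeR, adjusted p = 0.00621), with -2.20 and -1.51 against MC. *Sulf1* stood on both sides of MC, at -0.69 with miR-125b and 0.15 with Plus A.

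Of 18 tested myogenic transcription factors and fusion genes 1 was up-regulated, *Tmem8c*, and 3 were higher and 1 lower at an adjusted p below 0.05. Of 34 tested sarcomere and muscle genes 1, the low-count *Actn2*, was down-regulated, and 5 were higher and 2 lower at that level. Over all tested genes 0.707% were up- and 1.32% down-regulated, and 8.36% were higher and 7.55% lower. In the fit over all libraries no member of either list was higher or lower at that level. The call of *Actn2* was lost without any 1 of the 6 libraries, with adjusted p from 0.0813 without Plus A replicate 1 to 0.138 without miR-125b replicate 2 (edgeR), and *Tmem8c* was not called in the fit over all libraries. *Neb*, which encodes the thin filament ruler nebulin, was at 68.8, 65.7 and 61.1 CPM in Plus A and 45.4, 45.4 and 46.1 CPM in miR-125b, a log2 fold change of 0.51 (edgeR, adjusted p = 0.000705), and *Acta1*, skeletal alpha-actin, had one of 0.41 (edgeR, adjusted p = 0.00501). The myogenic regulators *Myog* and *Myod1* had log2 fold changes of -0.09 and 0.07 (edgeR, adjusted p = 0.192 and 0.413).

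The genes with the largest fold changes were of low level, and libraries of 1 group differed among themselves. *Cd151*, a tetraspanin gene, was at 0.232, 0.37 and 1.32 CPM in Plus A and 9.28, 8.29 and 3.91 CPM in miR-125b, a log2 fold change of -3.46 (SE 0.535; edgeR, adjusted p = 0.00401). *Zmiz2*, a transcriptional coregulator gene, was at 7.39, 8.06 and 6.19 CPM in Plus A and 3.22, 1.43 and 1.4 CPM in miR-125b, with a log2 fold change of 1.84 (SE 0.298; edgeR, adjusted p = 0.00491). For *Gstm5*, a glutathione transferase gene, the Plus A libraries lay far apart, at 2.65, 30.8 and 34.2 CPM against 2.22, 2.33 and 1.99 CPM in miR-125b, so that 1 Plus A library was near the miR-125b level. Its log2 fold change of 3.37 (edgeR, adjusted p = 0.0159) was not called without miR-125b replicate 1 (adjusted p = 0.0714), 2 (0.0594) or 3 (0.0722). Likewise *Mogs*, the gene of the glucosidase that starts N-glycan trimming, was at 1.23, 1.08 and 1.26 CPM in Plus A and 9.38, 5.96 and 1.27 CPM in miR-125b. Its log2 fold change of -2.22 (edgeR, adjusted p = 0.0294) was lost without Plus A replicate 2 (adjusted p = 0.0904) or 3 (0.0555) and without miR-125b replicate 1 (0.11) or 2 (0.0779).

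The study followed miR-125b isomiRs in apoptosis, and the genes it names were examined as a list that was not chosen independently of these libraries. Of its 16 genes 15 were tested, none was up- or down-regulated by the 1.5-fold rule, 2 were higher at an adjusted p below 0.05 (not given singly here, and 1 without Plus A replicate 2 or any 1 of the miR-125b libraries), and for 13 the 95% interval lay within 1.5-fold. Over all tested genes 8.36% were higher at that level, and 68.1% had such an interval. *Bak1*, the gene of a pore-forming killer protein of mitochondria and a reported miR-125b target, was at 33.8, 41.1 and 40.8 CPM in Plus A and 37.1, 37.1 and 37.6 CPM in miR-125b, a log2 fold change of 0.05 with a 95% interval from -0.12 to 0.22. *Bmf*, a BH3-only activator of apoptosis, was at 11.4, 14.3 and 11.1 CPM in Plus A and 12.7, 10.8 and 14.3 CPM in miR-125b, with a log2 fold change of -0.04 and an interval from -0.33 to 0.26. The groups overlapped for both. Against MC, *Bak1* stood at -0.70 with miR-125b and -0.65 with Plus A, and *Bmf* at -1.52 and -1.55. *Bax*, the gene of another pore-forming killer protein, was at 175, 226 and 241 CPM in Plus A and 266, 246 and 249 CPM in miR-125b, with a log2 fold change of -0.25 (edgeR, adjusted p = 0.128).

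Of the same list, *Tnnt2*, cardiac troponin T, was at 46.9, 45.1 and 50.5 CPM in Plus A and 42.1, 41.3 and 43.6 CPM in miR-125b, with a log2 fold change of 0.17 (edgeR, adjusted p = 0.0753), and stood at -2.83 with miR-125b and -2.66 with Plus A against MC. The genes whose interval reached past 1.5-fold were *Tnfrsf1b*, at under 1 CPM, from -1.27 to 0.35, and *Klf13*, from -0.69 to 0.51.

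**Figure D3:**
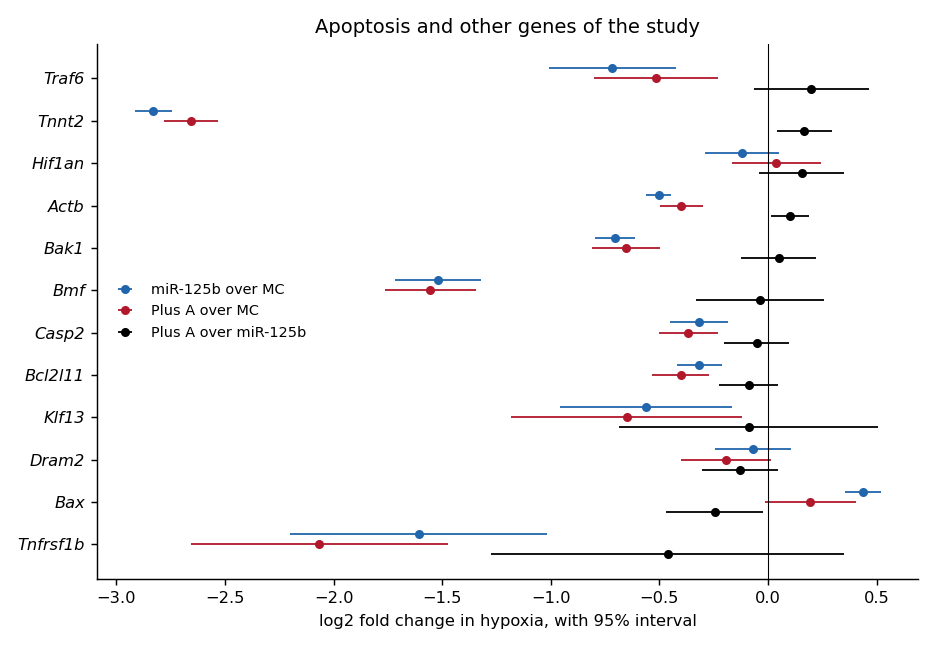
Log2 fold change with its 95% confidence interval for 12 of the tested genes that the study names, for Plus A over miR-125b, miR-125b over MC and Plus A over MC in hypoxia. The values of Plus A over miR-125b run from -0.46 for *Tnfrsf1b* to 0.20 for *Traf6*, while both mimics lie on the same side of MC for *Tnnt2*, *Bmf*, *Bak1* and *Tnfrsf1b*; the 3 contrasts share libraries.

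The wider gene groups of cell death gave a like picture. All 14 tested members of the BCL2 family had intervals within 1.5-fold, as did 68.1% of all tested genes. Of these 14, 1 was higher and 2 were lower at an adjusted p below 0.05, against 8.36% and 7.55% of all genes. In the fit over all libraries 0 were higher and 1 was lower. Of 35 tested caspases, inhibitors of apoptosis and death receptors 4 were higher and 2 lower at an adjusted p below 0.05, and none was called. Over all tested genes 8.36% were higher and 7.55% lower at that level. The 4 and 2 became 2 and 0 without Plus A replicate 2, and 1 and 0 without any 1 of the miR-125b libraries, and 1 member was called higher without Plus A replicate 3. In the fit over all libraries none was higher or lower at that level. The death receptor gene *Fas* was at 0.32 (edgeR, adjusted p = 0.00258).

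Of 28 tested genes from other reports of miR-125b targets, 1 was down-regulated, *Ccnd1*, and none was up-regulated, and there was no call without Plus A replicate 1, as given above. Over all tested genes 0.707% were up- and 1.32% down-regulated, and 8.36% were higher and 7.55% lower at an adjusted p below 0.05. The genes of microRNA processing, Argonaute complexes and 3′ end enzymes held 5 higher and no lower members of 24 tested at an adjusted p below 0.05, with none past 1.5-fold, 0 higher in the fit over all libraries, and 2 higher without Plus A replicate 2 or without any 1 of the miR-125b libraries. *Tnrc6b*, the gene of a scaffold that links Argonaute to deadenylation, was at 110, 104 and 108 CPM in Plus A and 76.1, 83.3 and 78.1 CPM in miR-125b, a log2 fold change of 0.44 (edgeR, adjusted p = 0.000816). *Ago2*, the slicing Argonaute, was at 0.40 (edgeR, adjusted p = 0.0117).

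In other stress and signalling groups, differences past the test were mostly within 1.5-fold. Of 40 tested genes of the unfolded protein and integrated stress response 38 had intervals within 1.5-fold, against 68.1% of all genes. Of these 40, 3 were higher and 2 lower at an adjusted p below 0.05, against 8.36% and 7.55% of all genes. All 31 tested genes of mitochondrial dynamics and mitophagy had such intervals, with 6 higher and 2 lower at that level, against 8.36% and 7.55% of all genes. The 6 became 2 without miR-125b replicate 1 or 3. Of 24 tested interferon-stimulated genes 1 was down-regulated, *Psmb9*, an immunoproteasome subunit gene at 1.13, 1.24 and 1.87 CPM in Plus A and 3.05, 2.4 and 2.31 CPM in miR-125b, and the call was lost, by the adjusted p, without any 1 library except Plus A replicate 3 (adjusted p from 0.0683 without Plus A replicate 1 to 0.133 without miR-125b replicate 1, edgeR). None of the 24 tested cytokine, chemokine and NF-kB genes was called. Of these, 1 was higher and 2 were lower at an adjusted p below 0.05, against 8.36% and 7.55% of all genes. Over all tested genes 0.707% were up- and 1.32% down-regulated. Of 31 tested genes of TGF-beta and BMP signalling 3 were higher and 4 lower at that level, against 8.36% and 7.55% of all genes. The 4 became 2 without Plus A replicate 2 or miR-125b replicate 1 or 2. The down-regulated member was *Inhba*, which encodes the activin A subunit, at 14.2, 17.7 and 14.3 CPM in Plus A and 23, 27.2 and 27 CPM in miR-125b, a log2 fold change of -0.74 (SE 0.103; edgeR, adjusted p = 0.00259). Neither *Inhba* nor *Psmb9* was called in the fit over all libraries.

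Gene length moved with direction. The median length was 2673 bases for the up-regulated, 1992.5 for the down-regulated and 2213.5 for all tested genes, and the median log2 fold change over 5 bins of gene length ran from -0.09 to 0.08. With the length trend taken out of each library, 106 genes were up- and 194 down-regulated, 259 of them among the 307. *Bicd2*, *Tulp4*, *Lrp12* and *Klf2* then fell under 1.5-fold, at 0.58, 0.58, 0.56 and -0.53. Of the 56 named genes that were called, 6 lost their call with the trend out. *Cav1* was then at -1.36, *Tpm3* at -0.89, *Usp15* at 1.02 and *Sulf1* at 0.77. The source of the length trend was not tested.

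In normoxia the same comparison with the libraries as labelled found no gene that differed. Of 14781 tested genes 0 passed edgeR's quasi-likelihood test, with 404 (2.73%) at an unadjusted p below 0.05, and DESeq2 gave 1 gene. *Cav1* was at 266, 98.9 and 99.2 CPM in Plus A replicates 1, 2 and 3 and at 103, 281 and 262 CPM in miR-125b replicates 1, 2 and 3. *Usp15* was at 23.2, 46.7 and 49.3 CPM in Plus A and 45.9, 25.3 and 24.2 CPM in miR-125b. For both genes the library labelled replicate 1 of a group lay with replicates 2 and 3 of the other group. Over the 294 hypoxia-called genes tested in normoxia, the library labelled Plus A replicate 1 was nearer to miR-125b replicates 2 and 3 for 226 (76.87%, against 63.51% of all genes), and the library labelled miR-125b replicate 1 was nearer to its own group for 68 (23.13%, against 36.94% of all genes). Whether labels were exchanged was not tested, and the libraries keep their labels here.

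**Figure D4:**
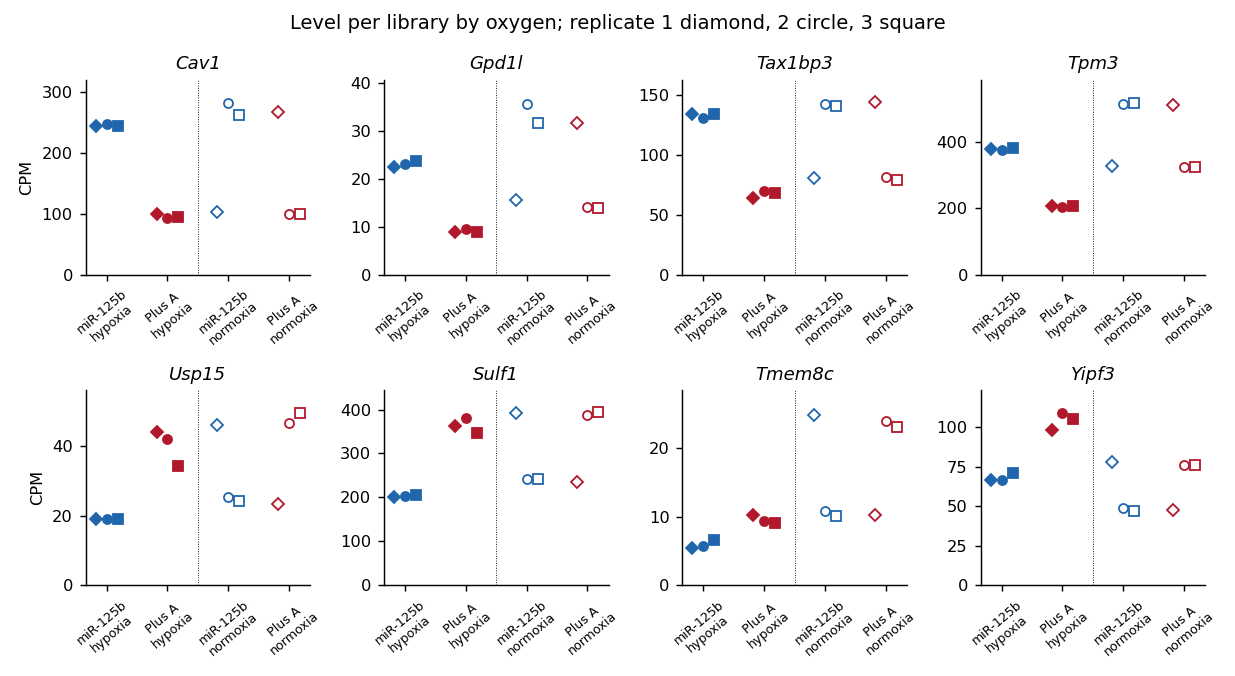
Level of 8 genes in CPM (vertical axis) in each Plus A and miR-125b library in hypoxia (filled) and normoxia (open), with replicate 1 as a diamond, 2 as a circle and 3 as a square; hypoxia and normoxia were normalised separately. The hypoxia groups are separate for each gene, whereas in normoxia the diamonds lie with the opposite group.

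With replicate 1 of both normoxia groups set aside, which leaves 2 libraries against 2, 53 genes were up- and 113 down-regulated in Plus A. *Cav1* then had a log2 fold change of -1.45 (edgeR, adjusted p = 3.44e-05), *Gpd1l* of -1.25, *Tax1bp3* of -0.82, *Tpm3* of -0.66, *Usp15* of 0.96, *Sulf1* of 0.70 and *Tmem8c* of 1.17, all on the same side as in hypoxia. *Ccnd1* was at -0.32, and *Cd151* was on the opposite side at 1.59. The cell cycle lists were also lower, with medians of -0.39 for mitosis and -0.38 for DNA replication against 0.00 over all genes, and with 21 members of each at an adjusted p below 0.05. The HIF and glycolysis list was on the other side of 0, with a median of 0.09, 8 of 34 members below 0 and 1 lower at an adjusted p below 0.05. With all 6 libraries those medians were -0.16, -0.12 and 0.01. These 2 libraries were set aside because of the genes of this comparison, so the values describe the remaining libraries and are not independent support for the differences in hypoxia. Cells in hypoxia and normoxia also differed in medium, so oxygen and medium cannot be told apart where the settings differ.

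The test of the difference itself, oxygen by mimic, was fitted on 15569 genes with all 12 libraries as labelled. Hypoxia came with serum-free, low-glucose DMEM and normoxia with fresh DMEM, so oxygen and medium cannot be told apart in this term. The effect of the added base differed between hypoxia and normoxia for 3 genes (0.0193%), while 2509 (16.1%) had an unadjusted p below 0.05. They were *Cask*, *Foxc2* and 1 of the identifiers named *Pfkfb4*. *Foxc2*, a forkhead transcription factor gene, was at 4.57, 3.88 and 4.5 CPM in Plus A and 8.57, 8.61 and 8.99 CPM in miR-125b in hypoxia, and at 17.8, 14.3 and 18 CPM and 15.1, 16.1 and 17.5 CPM in normoxia. The mimic groups of *Foxc2* were apart in hypoxia and overlapped in normoxia. With both normoxia replicates 1 left out, its adjusted p was 0.0537 and that of *Cask* 0.0551 (edgeR).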

How the data were processed

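Poly-A RNA of transfected H9C2 cells was sequenced without strand information. The authors deposited, for each library, raw counts per gene and FPKM values. HISAT2 and StringTie are named in the submitters' processing notes, while the counting step and the genome build are not given in the sources used here. The deposited counts were used for every test, and the deposited FPKM values only to rank genes by level per length. The authors' own columns of fold changes and p-values were not used, and the normoxia table that sets Plus A beside MC was not used either.

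Groups came from the sample titles. Plus A was compared with miR-125b in hypoxia (n = 3 each) with edgeR 4.0.16 in R 4.3.3, after filterByExpr and TMM normalisation over these 6 libraries, by the quasi-likelihood test on 15134 genes. The same fit was made in normoxia (14781 genes) and for each mimic against MC in hypoxia, and an oxygen by mimic term was fitted on the 12 libraries. Genes with an adjusted p below 0.05 (Benjamini-Hochberg) and a fold of at least 1.5 were called. SE and 95% intervals were taken from the same test. The members and gene lists were chosen with earlier results of these data known. Named genes were, per direction, the 10 called genes with the largest fold, the 8 with the lowest p and the 5 with the highest FPKM, among genes with unique names, a mean of at least 1 CPM and groups that did not overlap, together with every called list member and all genes the study names. Other list members were chosen as examples after their values were seen. Lists covered DNA replication, mitosis, HIF and glycolysis, immediate early genes, NRF2, intermediate filaments, cholesterol and fatty acid synthesis, matrix, integrins and laminins, caveolae, myogenic factors, sarcomere, BCL2 family, caspases and death receptors, reported miR-125b targets, microRNA processing, stress responses, mitochondrial dynamics, interferon, cytokines, TGF-beta and cell type markers.

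Alternatives were DESeq2 1.42.0, median-of-ratios size factors, no filter, the 33 libraries whose counts were used in 1 fit, a replicate block, other fold limits, each library left out, normoxia without replicate 1 of both groups (chosen with earlier results known) and, added after seeing the data, a length trend taken out (lowess, span 0.3). Scripts were tested on simulated counts. Depth varied little, between 29091343 and 30994490 counts a library, while Plus A replicate 1 in hypoxia lay apart from replicates 2 and 3, as given above. Counts are reads, not molecules, and intervals cover the spread between libraries only. Figures were drawn with matplotlib 3.10.9. Results on 1 gene and its pathway are not reported here.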

Additional observations from a re-analysis of the deposited data

Results flagged for a closer look

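The effect of the added base differed between hypoxia and normoxia, by the oxygen by mimic term of edgeR's quasi-likelihood test with the libraries as labelled, for 3 genes, each with an adjusted p of 0.0441 and n = 3 libraries a group. Medium differed along with oxygen, so they cannot be told apart here. *Cask*, a membrane-associated scaffold kinase gene, had a term of 5.39 on the log2 scale. Its levels in hypoxia were 3.06, 2.43 and 3.01 CPM in Plus A and 0.234, 0.597 and 0.158 CPM in miR-125b, and those in normoxia were 0.142, 0.144 and 0.243 CPM and 0.997, 0.215 and 1.46 CPM. *Foxc2* had a term of -1.05, with the values given in the report. *Pfkfb4*, an enzyme gene of glycolytic regulation, had a term of -7.54 for 1 of its 2 identifiers. Its levels in hypoxia were 0.0643, 0.0323 and 0.093 CPM in Plus A and 1.41, 0.785 and 0.0946 CPM in miR-125b, and those in normoxia were 2.38, 1.08 and 2.05 CPM and 0.0356, 0.0716 and 0.214 CPM. The other identifier had a term of -0.36 (edgeR, adjusted p = 0.77). *Cask* and *Pfkfb4* lay near or below 3 CPM in all 12 libraries. Without replicate 1 of both normoxia groups the terms were 5.17, -0.95 and -6.91 in the order named (edgeR, adjusted p = 0.0551, 0.0537 and 0.0537). They passed the 1.5-fold limit but not that of the adjusted p.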

How the results depend on the processing

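In hypoxia, the counts of 107 up- and 200 down-regulated genes stayed within 1.5 times under size factors, no filter, DESeq2, the length trend and the replicate block. They became 13 and 115 with all libraries in 1 fit, 32 and 47 at 2-fold, and 1265 and 1143 with no fold limit. Leaving out 1 library gave 46 to 123 up- and 119 to 214 down-regulated genes. With the replicate number as a block they were 78 and 146. Same-numbered libraries did not deviate together (correlations -0.0617, -0.0129 and -0.0298 in hypoxia, -0.333, -0.0781 and -0.0706 in normoxia). These values cannot exclude a pairing by number. Those of normoxia include the libraries labelled replicate 1 that lay with the opposite group for many genes. In normoxia, leaving out 1 library gave 0 to 4 up- and 0 to 3 down-regulated genes, DESeq2 gave 1 up-regulated gene, and leaving out both replicates 1 gave 53 and 113. The oxygen by mimic term gave 1 gene above and 2 below 0. These became 3 and 7 with no filter, 0 and 0 with all libraries in 1 fit, 0 and 0 with the replicate block, 27 and 46 with DESeq2, 0 to 4 and 0 to 6 without 1 library, 0 and 4 without both replicates 1, and 5 below 0 with no fold limit. Of the 56 named genes that were called, 29 were called without each library in turn, 28 lost their call with all libraries in 1 fit, and none changed sign. Under a changed setting, uncalled genes near 0 changed sign 6 times: *Klf13* to 0.0105 with the length trend out and from -0.29 to 0.16 across the omitted libraries (0.16 without Plus A replicate 1), *Bmf* from -0.16 to 0.0653 across them (above 0 without Plus A replicate 1 or 3 or miR-125b replicate 3), and *Casp2* from -0.0954 to 0.0013 (without miR-125b replicate 3). The cause of these changes was not tested. The calls of the low-count genes *Actn2*, *Fosb* and *Dusp4* were lost under most omissions of 1 library.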

Other observations

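Some called genes outside the lists, chosen after their values were seen, have roles in signalling and chromatin. Higher in Plus A in hypoxia were *Hdac6*, a cytoplasmic deacetylase gene, at 24.1 ± 2.77 against 11.7 ± 2.55 CPM (SD, n = 3; log2 fold change 1.05), *Foxo1*, a forkhead factor gene of insulin signalling, at 8.88 ± 0.579 against 5.67 ± 0.344 CPM (0.65), *Prkaa2*, the alpha 2 catalytic subunit of the energy sensor AMPK, at 5.39 ± 0.138 against 3.41 ± 0.0641 CPM (0.66), and *Eea1*, an early endosome tether, at 49.1 ± 2.98 against 30.6 ± 1.81 CPM (0.68). The levels of *Prkaa2* and *Foxo1* lay above MC with both mimics, by 1.09 and 0.66 with miR-125b and 1.75 and 1.31 with Plus A on the log2 scale.

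Lower in Plus A were *Plat*, the gene of tissue plasminogen activator, at 33.6 ± 3.3 against 58.5 ± 4.86 CPM (SD, n = 3; log2 fold change -0.80), the antiproliferative gene *Btg3* at 33.7 ± 2.22 against 63.1 ± 3.33 CPM (-0.90), *Cse1l*, an export receptor for importin alpha, at 49.5 ± 3.32 against 83.4 ± 0.329 CPM (-0.75), *Uhrf1*, which maintains DNA methylation at replication, at 25.5 ± 1.99 against 40.8 ± 2.45 CPM (-0.68), and the shedding protease gene *Adam17* at 33.9 ± 1.84 against 53.9 ± 1.76 CPM (-0.67). *Wee1*, a kinase gene that holds back mitotic entry, was at 16.3 ± 0.957 against 25.4 ± 1 CPM (-0.64). The adjusted p values of all genes named here in edgeR were below 0.05.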
